A study of Mus musculus with 460 samples.

Results

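The 10 genes described here encode enzymes that modify and crosslink collagen: the 5 lysyl oxidase (LOX) family genes Lox, Loxl1, Loxl2, Loxl3 and Loxl4, the 3 procollagen lysyl hydroxylase genes Plod1, Plod2 and Plod3, and the 2 prolyl 4-hydroxylase alpha subunit genes P4ha1 and P4ha2. They were chosen by gene symbol from the 48440 genes of a single-cell RNA-seq count table, and all 10 were found. The 460 cells were labelled as cancer-associated fibroblasts (CAFs) from mice with lung adenocarcinoma. No treatment or age was given, every cell carried the same labels, and no animal or culture was named. All cells therefore count as 1 sample, and values are descriptions with no p-value. Intervals are exact 95% intervals that cover counting error only, not differences between animals.

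Fibrillar collagen is built in steps. Inside the endoplasmic reticulum, prolyl 4-hydroxylases form the hydroxyprolines that stabilise the triple helix, and lysyl hydroxylases form hydroxylysines that serve in glycosylation and crosslinking. Outside the cell, the copper-dependent lysyl oxidases convert lysines and hydroxylysines of collagen and elastin to aldehydes, from which the covalent crosslinks of the matrix form. In tumours these crosslinks stiffen the stroma, and fibroblasts are a major source of both the collagen and the enzymes.

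The cells held 25029 to 240496 molecular barcode counts each, with a median of 88701. Pericytes, the contractile cells of small vessels, are marked by Rgs5, and lung fibroblasts by Pdgfra, the gene of a platelet-derived growth factor receptor. Cells were split by whether the Rgs5 count exceeded the Pdgfra count, which placed 44.1% of the 460 cells (interval 39.5 to 48.8) in an Rgs5-dominant set and 55.9% in the other set, with no ties. Both genes had a count in every cell, and 11 cells in all lay within 5 counts of the boundary, 7 on the Rgs5 side and 4 on the other. Lox summed to 361.2 CPM (counts per 1000000 counts) in those 7 cells and to 56.6 CPM in those 4, values that rest on very few cells. The 9 pericyte or vascular smooth muscle markers, Rgs5 among them, summed to 10230 CPM in the Rgs5-dominant set and 1863 CPM in the other, whereas the 12 fibroblast markers, Pdgfra among them, summed to 18739 and 23762 CPM. Without Rgs5 and Pdgfra, which made the split, 8 pericyte or vascular smooth muscle markers summed to 5610 and 1495 CPM. The 11 other fibroblast markers summed to 18330 and 22036 CPM. They include the collagen genes Col1a1, Col1a2 and Col3a1, whose differences are results below, so this sum is not separate from them. Of 10 fibroblast markers reaching 5 CPM in either set, 5 were at least 1.5-fold lower in Rgs5-dominant cells and 1 higher. Col1a1, Col1a2 and Col3a1 are among those 5, so this count is not separate from the results below either. Of the 8 pericyte or vascular smooth muscle markers, 6 were higher and 0 lower. Among all genes at that level 11.5% were lower and 10.9% higher.

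Some properties of the cells moved with the split. The median total was 76944 counts in Rgs5-dominant cells and 96654 in the others. Immune markers summed to 478 and 165.5 CPM, with medians per cell of 78.95 and 75.6 CPM and ranges of 0 to 10147 and 0 to 6537 CPM. No immune marker was at 0 in the Rgs5-dominant set. Epithelial or lung tumour markers summed to 1457 and 875 CPM (medians 744 and 628; ranges 0 to 23917 and 0 to 25523 CPM), again with no marker at 0. Endothelial markers summed to 97.7 and 77.6 CPM, with medians of 17.8 and 12.96 CPM. Mesothelial markers summed to 101.7 and 42.8 CPM, with a median of 0 in both sets and up to 8320 CPM in a single Rgs5-dominant cell. Posterior Hox genes, which mark a position along the body axis, summed to 13.5 and 61.2 CPM, also with medians of 0. A further feature of the table is a group of columns (27.6%) that sit in runs where most neighbouring columns have under 30 CPM of Sftpc, a surfactant gene. They made up 31.5% of the Rgs5-dominant cells and 24.5% of the others. The part of these differences in the results below was not tested, but values without such columns or cells are given.

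All 10 genes had counts, over a range of more than 100-fold in level per length. Loxl2, which encodes a lysyl oxidase with scavenger receptor domains, was the most abundant at 114.4 CPM per kb of exon (interval 113.045 to 115.8). Plod3, whose enzyme also glycosylates hydroxylysine, followed at 52.2 CPM per kb (51.2 to 53.2) and P4ha1, the main catalytic alpha subunit in many cells, at 49.8 (48.8 to 50.8). Then came Loxl1, a gene needed for elastic fibre upkeep, at 32.8 CPM per kb and Loxl3 at 32.5, whose intervals overlapped (31.9 to 33.8 and 31.7 to 33.3), and Lox, the founding lysyl oxidase gene, at 29.1. Plod2, the hydroxylase of collagen telopeptide lysines, stood at 23.1 CPM per kb, Plod1, which acts on helical lysines, at 17.3, P4ha2 at 5.75 and Loxl4 at 0.919. The labels do not say whether counts cover whole transcripts. If they come from transcript ends, the order by CPM alone applies, which is Loxl2 (618 CPM), Plod3 (235.8), P4ha1 (204.9), Loxl3 (149.6), Lox (139.1), Plod2 (124.7), Plod1 (116.8), Loxl1 (108.2), P4ha2 (35.9) and Loxl4 (3.87). Loxl1 is the gene whose place differs most between the scales. Together the 10 genes summed to 1737 CPM, of which the LOX family held 58.7%, the lysyl hydroxylases 27.5% and the 2 alpha subunits 13.9%.

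Some of the genes were near-universal and others patchy. Loxl2, Loxl3, P4ha1 and the 3 Plod genes were each counted in over 90% of cells, from 92.6% for Plod1 to 99.6% for Loxl2 and for P4ha1. Loxl1 was counted in 75% of cells (interval 70.8 to 78.9), Lox in 74.3% (70.1 to 78.3) and P4ha2 in 61.96% (57.3 to 66.4). Lox was patchy beyond its detection rate: the 10% of cells with the most Lox counts held 49.2% of them, against 25.9% for Loxl2 and 24.4% for P4ha1. Loxl1 (45.3%) and P4ha2 (43.5%) were also concentrated. Loxl4 had a count in 11.96% of cells (9.14 to 15.3), and the 10% of cells richest in it held 94.5% of its counts, with at most 15 counts in a cell. That share lies between those of Epcam (5.43%), an epithelial marker, and Pecam1 (16.3%), an endothelial marker, and close to that of Ptprc (11.3%), a leukocyte marker, none of which a fibroblast should express. Such a share cannot separate expression in a few cells from free RNA. Loxl4 is therefore not read as expression by these cells, and which of these applies was not tested. Sftpc, the surfactant gene among the epithelial or lung tumour markers, had a count in 80.9% of cells, at 483 CPM over all cells. That share is above those of Lox, Loxl1 and P4ha2, so their shares alone cannot separate expression from free RNA either. The table holds no cell type that should lack the other 9 genes, so the part that free RNA plays in their low counts was not tested.

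Lox and Loxl1 were lower in Rgs5-dominant cells by more than Col1a1 was, Loxl3 was higher, and the lysyl hydroxylase genes were nearly level. Col1a1 encodes the alpha 1 chain of type I collagen, a substrate of these enzymes. Of the 9 genes with at least 5 CPM in either set, 3 were at least 1.5-fold lower in Rgs5-dominant cells (Lox, Loxl1 and P4ha2), 1 was at least 1.5-fold higher (Loxl3), and 5 lay between. Among all 12598 genes at that level, 11.5% were at least 1.5-fold lower and 10.9% at least 1.5-fold higher, and among the 7481 genes at 20 CPM or more 8.88% and 6.47% were. The median log2 ratio was -0.26 over the 9 genes and 0.03 over all genes tested. Loxl4 did not reach 5 CPM in either set (2.77 and 4.60 CPM).

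**Figure D1:**
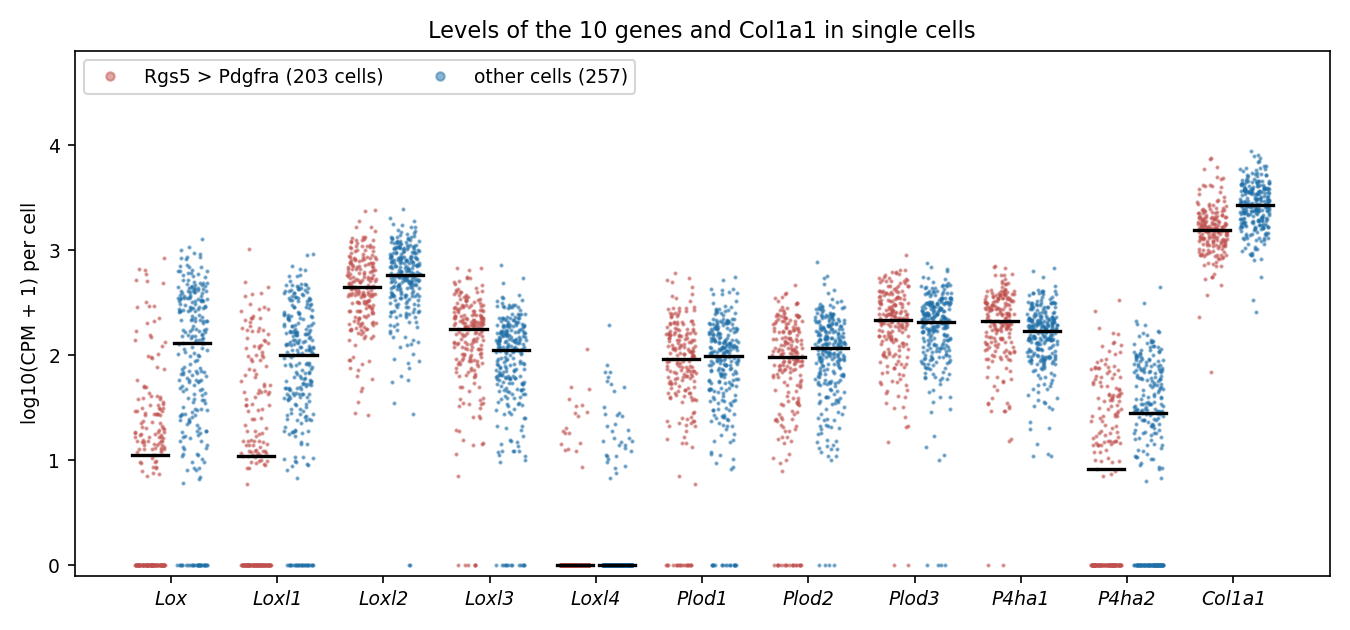
Level of each of the 10 genes and of Col1a1 in single cells, as log10(CPM + 1), for the cells with more Rgs5 than Pdgfra (red, 44.1% of cells) and the others (blue). Each point is a cell and each black line a median; the medians of Lox and Loxl1 are about 10 CPM in the red set and at least 100 CPM in the blue set, and those of the Plod genes lie close together.

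Lox showed the widest difference. In single Rgs5-dominant cells its level was 0 at the lowest, 10.1 CPM at the median and 839 CPM at the highest. In the other cells the lowest was also 0, the median 129.2 CPM and the highest 1269 CPM. The sets overlap, but the upper quartile of the first (26.6 CPM) was close to the lower quartile of the second (23.8 CPM). Over summed counts, Lox was 47.4 CPM (interval 44.2 to 50.8) against 199.7 CPM (194.3 to 205.2), or 4.21-fold lower. A minority of Rgs5-dominant cells carried most of it there, with 76.99% of the counts in the top 10% of cells, against 37.4% in the other set. Where only cells with more than a 2-fold excess of 1 gene over the other were compared, the log2 ratio of Lox was -3.07 in place of -2.07.

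Loxl1 followed the same pattern with a smaller ratio. Its levels ran from 0 through a median of 10.1 to 1017 CPM in Rgs5-dominant cells and from 0 through 100.003 to 924 CPM in the others. The summed levels were 54.7 CPM (51.3 to 58.4) and 143.6 CPM (139.001 to 148.3), which is 2.62-fold lower in the Rgs5-dominant set. With the 2-fold excess required its log2 ratio was -2.06 in place of -1.39. Col1a1, by comparison, was 1740 against 2850 CPM, 1.64-fold lower. Per 100 Col1a1 counts, Rgs5-dominant cells held 2.73 Lox and 3.15 Loxl1 counts, and the others 7.01 and 5.04. With every cell thinned to 56586 counts, 38.6% of Rgs5-dominant cells (31.3 to 46.3) had a count of neither gene and 26.3% of both, against 6.58% (3.81 to 10.5) and 73.3% of the others. Unthinned, Lox and Loxl1 each had a count in 56.2% of Rgs5-dominant cells, and in 88.7% and 89.9% of the others.

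Loxl3 went the other way. It encodes a lysyl oxidase with scavenger receptor domains, as does Loxl2. Its level in single cells ran from 0 through a median of 175.8 to 682 CPM in the Rgs5-dominant set, and from 0 through 110.3 to 723 CPM in the other. The summed levels were 189.1 CPM (182.6 to 195.7) and 123.5 CPM (119.3 to 127.9), a ratio of 1.53, just over the 1.5-fold limit. Without the columns low in Sftpc the log2 ratio was 0.54 in place of 0.61 and the limit was no longer reached. Within single cells Loxl3 counts can be set beside Lox counts without regard to depth: Lox exceeded Loxl3 in 10.3% of the first set (6.52 to 15.4) and in 51.8% of the second (45.5 to 58.0035). Htra2, a gene on the opposite strand, overlaps 11.6% of the exon length of Loxl3, and strand use in the counting is not stated. Htra2 itself was 6.84 CPM in the Rgs5-dominant set and 9.51 CPM in the other, the opposite order to Loxl3.

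Loxl2 stayed within the limit. Its single-cell levels ran from 26.2 through a median of 443.2 to 2431 CPM in Rgs5-dominant cells and from 0 through 583 to 2453 CPM in the others, so the ranges coincide nearly throughout. The summed levels were 553 and 662 CPM, 1.20-fold lower in the first set. It had the most counts of the LOX family in 82.8% of all cells, 81.3% of the Rgs5-dominant ones and 84.05% of the others. Loxl3 took that place in 13.8% of Rgs5-dominant cells and 2.72% of the others, while Lox took it in 2.46% and 8.17%. The makeup of LOX family counts thus differed between the sets, with Loxl2 the most abundant in both. Lox went from 17.6% of the family's counts in the other cells to 5.599% in the Rgs5-dominant ones, and Loxl3 from 10.9% to 22.3%, while Loxl2 held 58.4% and 65.3%.

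The lysyl hydroxylase genes differed little between the sets. Plod1 was 114.8 against 118.1 CPM, Plod2 111.4 against 133.5 CPM and Plod3 248.5 against 227.4 CPM, in Rgs5-dominant and other cells. Their medians per cell were 90.4 and 97.8 CPM for Plod1, 95.4 and 114.9 CPM for Plod2, and 216.6 and 206.1 CPM for Plod3, with ranges that start at 0 in both sets. Because Col1a1 was lower in the Rgs5-dominant set, the counts of each Plod gene per 100 Col1a1 counts were higher there: 6.597 against 4.14 for Plod1, 6.40 against 4.69 for Plod2 and 14.3 against 7.98 for Plod3. Znhit1 overlaps 11.7% of the exon length of Plod3 on the opposite strand, and was itself 28.9 and 26.3 CPM in the sets.

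The prolyl 4-hydroxylase alpha subunit genes parted. P4ha1 ran from 0 through a median of 212.9 to 702 CPM in Rgs5-dominant cells and from 9.86 through 168.2 to 677 CPM in the others. Its summed levels of 243.97 CPM (236.6 to 251.5) and 178.99 CPM (173.9 to 184.2) give a ratio of 1.36, under the limit. P4ha2, whose subunit forms the same kind of tetramer with P4hb, ran from 0 through 7.30 to 332.4 CPM and from 0 through 27.1 to 449.5 CPM. Summed, it was 26.3 CPM (23.9 to 28.9) against 42.2 CPM (39.7 to 44.8), or 1.61-fold lower in the Rgs5-dominant set. Its median in that set is close to a single count, so its lower part cannot be resolved at this depth. The related P4ha3, from the fixed list of other collagen maturation genes, had the largest ratio of the alpha subunit genes: 64.3 against 291.5 CPM, 4.53-fold lower, with medians of 15.8 and 220.7 CPM. P4ha3 counts exceeded P4ha1 counts in 11.3% of Rgs5-dominant cells (7.32 to 16.5) and 60.7% of the others (54.4 to 66.7). P4ha1 thus held 72.9% of alpha subunit counts in the first set and 34.9% in the second.

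P4ha1 and P4ha2 are both known to respond to hypoxia, and their promoters are shown because the genes differ in direction between the sets. The RefSeq promoter table (GRCm38.p6) matched 5 of the 10 genes. The 250 bases before the start of transcription are given 5′ to 3′, from chr10:59323046-59323295 (plus strand) for P4ha1 and chr11:54100674-54100923 (plus strand) for P4ha2, with matches to ACGTG or GCGTG on either strand in capitals. These letters are the core of the element bound by hypoxia-inducible factors.
P4ha1: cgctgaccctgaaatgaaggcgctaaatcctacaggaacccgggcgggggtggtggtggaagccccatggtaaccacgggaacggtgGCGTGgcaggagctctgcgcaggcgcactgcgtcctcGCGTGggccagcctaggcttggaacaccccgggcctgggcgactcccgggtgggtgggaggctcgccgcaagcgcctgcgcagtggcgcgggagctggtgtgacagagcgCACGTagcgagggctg
P4ha2: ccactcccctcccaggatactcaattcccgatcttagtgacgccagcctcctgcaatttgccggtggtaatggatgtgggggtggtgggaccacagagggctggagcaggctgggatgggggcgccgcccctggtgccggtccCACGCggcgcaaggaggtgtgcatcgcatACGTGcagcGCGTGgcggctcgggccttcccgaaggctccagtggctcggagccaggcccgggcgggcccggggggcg
Each window held 3 matches, 1 of ACGTG and 2 of GCGTG, and none of them lay in the E-box CACGTG, which contains ACGTG. The match nearest the start began 16 bases before it in P4ha1 and 69 bases before it in P4ha2. Of all 32851 promoter windows of this length, 38.6% held at least 1 match and 6.58% held 3 or more. ACGTG alone was in 16.6% and GCGTG in 28.2%. Plod3, nearly level between the sets, had 4 matches in its window, and Plod1 and Loxl4 had 1 each. A match describes the sequence only and is not a bound site. The GENCODE vM21 model of P4ha1 starts at the base after its window, whereas that of P4ha2 starts upstream of its window.

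Of the 18 hypoxia genes listed, 17 reached 5 CPM. In Rgs5-dominant cells 2 of them were at least 1.5-fold higher and 4 at least 1.5-fold lower, with a median log2 ratio of 0.15. Over all 12598 genes tested the shares were 10.9% higher and 11.5% lower. The most abundant were Ldha (377.5 against 320.1 CPM), which encodes lactate dehydrogenase A, the angiogenic factor gene Vegfa (163.1 against 255.6 CPM) and Ndrg1 (143.95 against 175.2 CPM). Across cells P4ha1 correlated with Ldha at 0.20, with Vegfa at 0.05 and with Ndrg1 at 0.02, and P4ha2 at -0.06, 0.12 and 0.01. Over the listed hypoxia genes counted in at least 10% of cells, the highest value was 0.26 for P4ha1 and 0.12 for P4ha2. Other members had larger values with Vegfa: 0.31 for Loxl2, 0.26 for Lox and -0.31 for Loxl3.

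Col1a1 tracked Lox and Loxl1 closely, Loxl2 less so and the hydroxylases weakly or not at all. Spearman correlations across the 460 cells, on log values of counts scaled to 10000 per cell, were 0.61 for Lox with Col1a1, 0.54 for Loxl1, 0.41 for Loxl2, 0.26 for P4ha2 and 0.18 for Plod2. The points share library depth, and correlations of genes with few counts are held down by counting noise. The others lay between -0.10 (P4ha1) and 0.06 (Loxl4). Only 8 of 13974 other genes counted in at least 10% of cells correlated more highly with Col1a1 than Lox did, 21 more highly than Loxl1 and 84 more highly than Loxl2. At 0.2 or above were 4 of the 10 genes and 3.93% of all those genes, or 6.18% of the genes at 20 CPM or more. The median was 0.12 over the 10 genes and -0.03 over all.

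**Figure D2:**
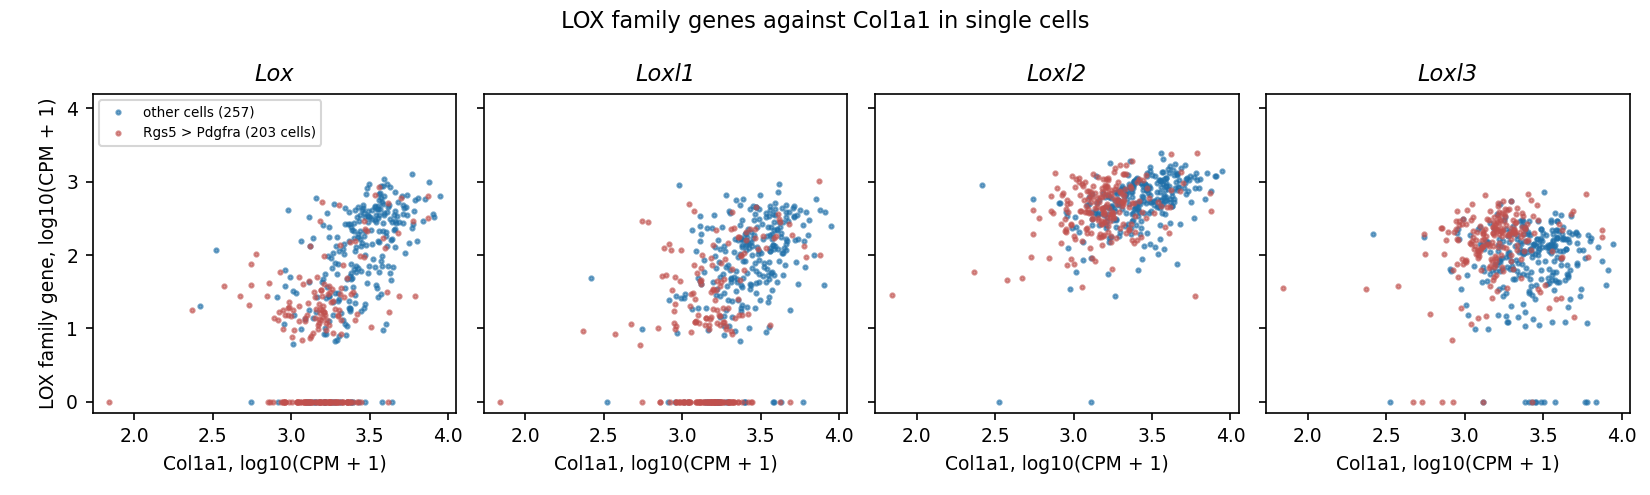
Levels of Lox, Loxl1, Loxl2 and Loxl3 against Col1a1 in single cells, each axis log10(CPM + 1), with Rgs5-dominant cells in red and other cells in blue. Lox and Loxl1 climb with Col1a1 (correlations 0.61 and 0.54), Loxl2 does so from a higher base (0.41), and Loxl3 does not (-0.06).

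Part of this runs along the split, and part does not. Within the other cells the correlation of Lox with Col1a1 was 0.61, of Loxl1 0.45 and of Loxl2 0.50. Within the Rgs5-dominant cells these were 0.19, 0.24 and 0.25, where Lox and Loxl1 are mostly at a few counts or 0. Loxl3 correlated with Col1a1 at 0.21 there and at 0.03 in the other cells. These differences between the sets were not tested.

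Grouping the cells by Col1a1 level shows the same order in units of expression. In the quartile of cells with the least Col1a1 (1042 CPM of it) Lox was 28.1 CPM, then 42.2, 140.01 and 347.1 CPM in the next quartiles, the last with 4342 CPM of Col1a1. From bottom to top Lox was thus 12.3-fold higher while Col1a1 was 4.17-fold higher. Loxl1 was 44.8, 47.97, 129.3 and 211.3 CPM, 4.72-fold higher at the top, and Loxl2 416.04, 535, 679 and 845 CPM, or 2.03-fold. P4ha2 was 25.02, 27.6, 35.4 and 55.6 CPM, or 2.22-fold, a ratio above that of Loxl2 despite its lower correlation. Loxl4, with few counts, was 1.71-fold higher at the top. Loxl1 was nearly level over the lower 2 quartiles. Loxl3, Plod1, Plod3 and P4ha1 differed between the end quartiles by ratios of 0.93, 1.01, 0.93 and 0.88, and Plod2 by 1.42. Median totals were 84497, 89290, 90381 and 89122 counts. The share of Rgs5-dominant cells went from 71.3% in the bottom quartile to 13.9% in the top one, so both orderings overlap.

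**Figure D3:**
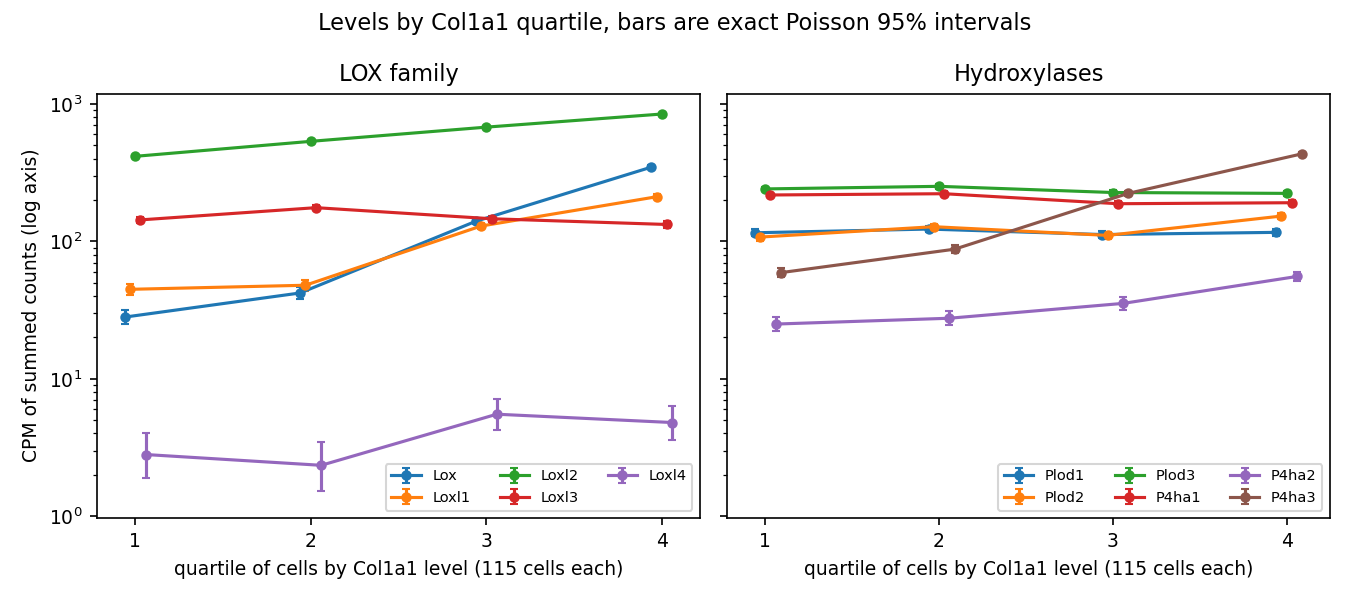
Levels of the LOX family genes (left) and of the hydroxylase genes with P4ha3 (right), as CPM of summed counts on a log axis, in 4 groups of equal size ordered by Col1a1 level. Bars are exact Poisson 95% intervals. Lox goes from 28.1 to 347.1 CPM, P4ha3 from 59.2 to 434.5 CPM and Plod2 from 107.5 to 152.95 CPM. Plod1, Plod3 and P4ha1 stay nearly flat.

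Quartiles drawn within each set, an added view chosen after seeing the data, kept the order Lox, Loxl1, Loxl2 in the ratios of summed counts. Among the other cells alone Lox was 5.99-fold, Loxl1 3.46-fold and Loxl2 2.27-fold higher in the top Col1a1 quartile than in the bottom one, against 3.36-fold for Col1a1. Among Rgs5-dominant cells alone the ratios were 10.98, 3.55 and 1.79, against 3.68 for Col1a1. The Lox sum of that set comes mostly from few cells, as given above, and the rank correlations there (0.19, 0.24 and 0.25) did not have this order. Elastin (Eln), the other main lysyl oxidase substrate, was 7.28-fold higher in the top quartile of all cells, and P4ha3 7.34-fold.

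The 10 genes were not a single co-varying group. The mean of their 45 pairwise correlations was 0.06 and the median 0.04. Of the 45 pairs, 5 reached 0.2, 1 lay under -0.2, and 39 lay between. For comparison, each gene's median correlation with all genes counted in at least 10% of cells lay between -0.01 (Loxl2) and 0.02 (P4ha2). The share of all gene pairs past these limits was not computed. Lox with Loxl1 stood apart at 0.62 (0.65 at thinned depth; 0.63 within the other cells and 0.31 within the Rgs5-dominant ones). The next were Loxl1 with P4ha2 (0.24), Lox with P4ha2 (0.23), Lox with Loxl2 (0.23) and Loxl2 with P4ha2 (0.20). Lox with Loxl3 was -0.21 over all cells, -0.14 within the Rgs5-dominant set and 0.004 within the other. Lox with P4ha1 and Loxl1 with P4ha1 were each -0.18 over all cells, and between -0.12 and -0.01 within either set. Plod genes correlated with each other at 0.02 to 0.07. Plod2 with P4ha1, both known hypoxia-responsive genes, was 0.17, with 0.31 within Rgs5-dominant cells and 0.07 within the others.

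**Figure D4:**
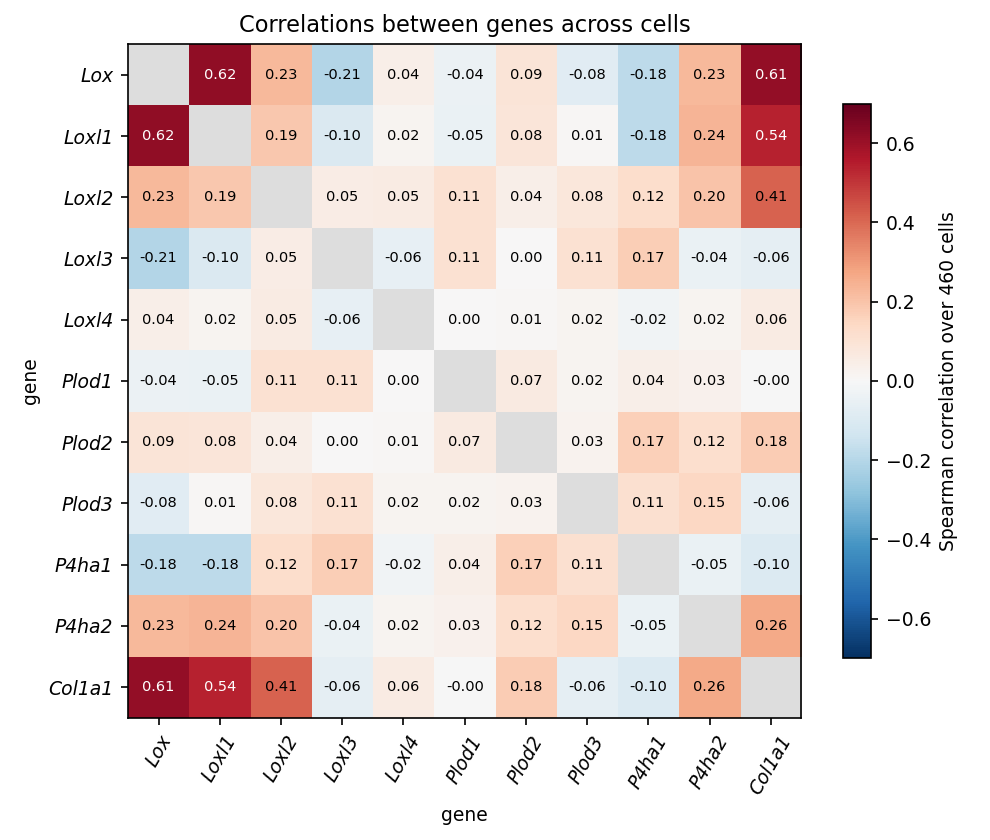
Spearman correlations between the 10 genes and Col1a1 over the 460 cells, with the value printed in each square (red positive, blue negative, grey the diagonal). The block of Lox, Loxl1 and Col1a1 holds the highest values (0.54 to 0.62); the rows of Plod1, Plod3 and Loxl4 are near 0.

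The genes most like each member sorted in the same way. Closest to Lox were Col1a2 (0.67), Mfap5 (0.65), which encodes a microfibril protein, and Ltbp1 (0.64), which encodes a latent TGF-beta binding protein. Closest to Loxl1 were Mgp (0.70; matrix Gla protein), Bgn (0.68; biglycan) and Mfap5 (0.67). Within the Rgs5-dominant cells Loxl1 kept 0.58 with Mgp, 0.58 with Bgn and 0.52 with Mfap5. Lox had 0.29 with Col1a2, 0.31 with Mfap5 and 0.38 with Ltbp1 there. Closest to Loxl2 were Fstl1 (0.46), Col5a2 (0.44) and Col5a1 (0.43), the last pair encoding chains of type V collagen. Loxl3 was nearest to Olfml2b (0.48), F2r (0.46; the thrombin receptor) and Itga1 (0.43; a collagen-binding integrin subunit). P4ha1 was nearest to Pkm (0.34; pyruvate kinase), F2r (0.30) and Sdc3 (0.30), and P4ha2 to Col12a1 (0.28), Mgp (0.28) and Prrx1 (0.27). For Plod1, Plod2, Plod3 and Loxl4 no gene in the search exceeded 0.23, and Sec16b with Plod2 (0.23) was the highest. Only genes with a count in 10% of cells or more were searched. Mitochondrial genes, genes of ribosomal proteins, and genes with placeholder or repeated symbols were left out. The closest genes are those of this search, and the top values are the largest of many.

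Type IV collagen, the network collagen of basement membranes, related to the genes differently. Col4a1 correlated at -0.53 with Lox and -0.51 with Loxl1, at 0.37 with Loxl3 and 0.24 with P4ha1, and at 0.08 with Loxl2. Within the sets Loxl2 was positive with Col4a1, at 0.29 in Rgs5-dominant and 0.17 in the other cells, as it was with Col1a1. The negative relations were smaller within each set (Lox -0.35 and -0.22, Loxl1 -0.35 and -0.29, Rgs5-dominant first). Loxl3 had 0.38 with Col4a1 within Rgs5-dominant cells and 0.08 within the others.

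The substrates were divided as well. All 16 collagen chain and elastin genes listed were at 5 CPM or more. Of these, 6 were at least 1.5-fold lower in Rgs5-dominant cells and 5 at least 1.5-fold higher, with a median log2 ratio of -0.32. The shares over all 12598 genes tested were 11.5% lower and 10.9% higher. The lower ones were Eln (328.1 against 942 CPM), Col12a1 (536 against 1226), Col3a1 (1206 against 2245), Col1a2 (1711 against 3130), Col1a1 and Col5a1 (445.96 against 701). The higher ones were Col5a3 (906 against 176.03 CPM), Col4a2 (2231 against 1106), Col15a1 (1012 against 518), Col4a1 (2701 against 1409) and Col18a1 (771 against 412.7). Col6a3, also among the 5 most abundant, was 2685 against 2223 CPM.

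The other genes of collagen folding and processing had calls at about the share of all genes. Of 30 other collagen maturation genes, 26 reached 5 CPM, 3 were at least 1.5-fold lower in Rgs5-dominant cells, 3 at least 1.5-fold higher and 20 between, with a median log2 ratio of -0.19. Among all genes tested 11.5% were lower and 10.9% higher. The most abundant were Adamts2, a procollagen N-proteinase gene (488 against 636 CPM), Pcolce, an enhancer of the C-proteinase (444.01 against 595), Serpinh1, the collagen chaperone HSP47 (334.9 against 382.2), Crtap (299.5 against 340.9), which encodes a partner of prolyl 3-hydroxylase, and P4hb (293.98 against 328.6), the beta subunit that P4ha1 and P4ha2 share. The lower genes were P4ha3, Pcolce2 (12.97 against 33.4 CPM) and the N-proteinase gene Adamts14 (4.42 against 9.16). The higher ones were P3h2, a prolyl 3-hydroxylase gene that acts on type IV collagen (22.7 against 8.42 CPM), Tgm2, which encodes the crosslinking enzyme transglutaminase 2 (201.3 against 79.8), and Adamts3 (29.6 against 19.2). The medians of P3h2, Adamts3, Adamts14 and Pcolce2 were 0 in both sets, so a minority of cells carried those differences.

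**Figure D5:**
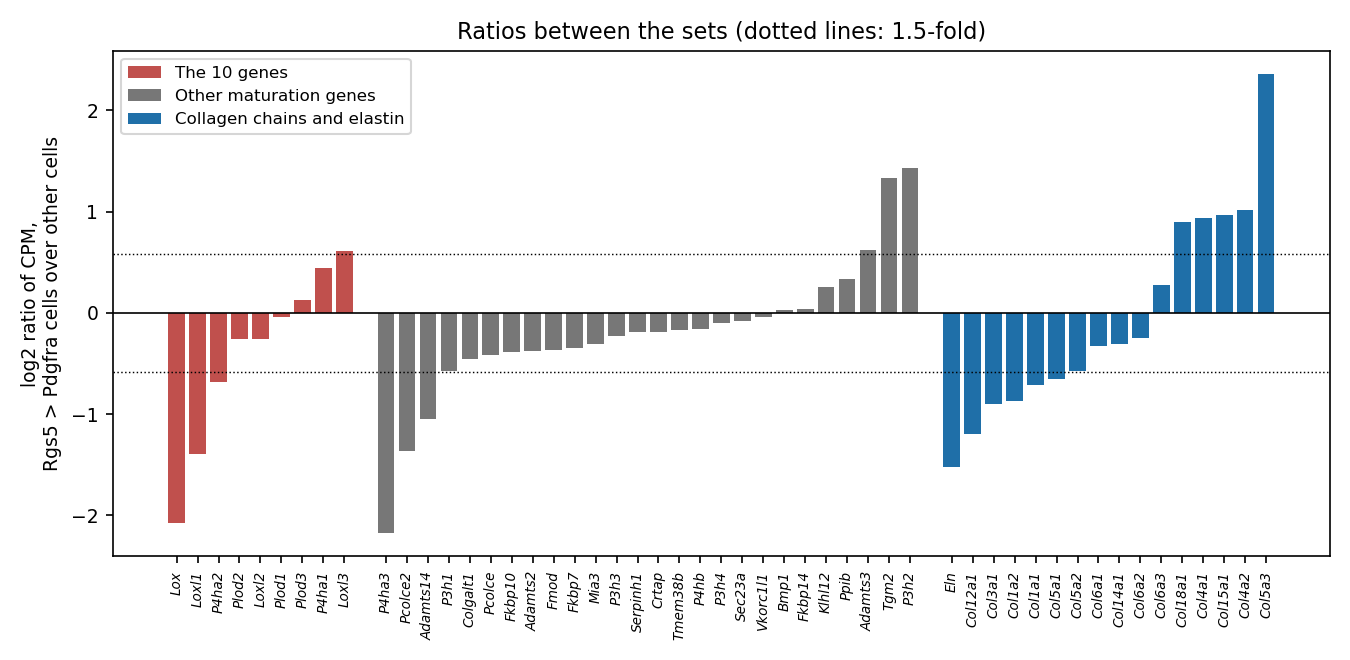
Log2 ratio of CPM between Rgs5-dominant and other cells for the 9 of the 10 genes (red), the 26 other maturation genes (grey) and the 16 substrate genes (blue) that reached 5 CPM in either set; bars start at 0 and dotted lines mark 1.5-fold. Lox and P4ha3 lie lowest, near -2, in their groups, and Col5a3 and P3h2 highest.

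The differences between the sets were of similar size without the cells richest in transcripts of other lineages. With 10% of cells left out on that ground, the log2 ratios were -1.94 for Lox, -1.24 for Loxl1, -0.68 for P4ha2, 0.69 for Loxl3 and 0.51 for P4ha1. Within the columns low in Sftpc alone they were -1.95, -1.17, -0.64, 0.79 and 0.28, and without those columns -2.08, -1.44, -0.70, 0.54 and 0.50. With every cell thinned to the same depth they were -2.48, -1.50, -0.63, 0.67 and 0.44.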

How the data were processed

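Per the labels, each sample is 1 cell, and libraries were made by sonication and adapter ligation. STAR, HTSeq and the mm10 build are listed in the submitters' processing notes. Versions, annotation and the step that gave barcode counts are not given in the sources used here. The authors deposited whole-number molecular barcode counts for 48440 genes in 460 cells, with sample titles as column names. A minimum of 1000 counts and 500 genes and a maximum of 20% mitochondrial counts per cell removed no cell. No doublet caller was run, and an alternative dropped the deepest 5%. Where a symbol was repeated, its most abundant gene was used. Exon lengths were merged from GENCODE vM21 (48058 identifiers matched); mm10 and GRCm38 share coordinates. Thinning drew 56586 counts per cell, the 10th percentile, and left out 46 shallower cells, 32 of them Rgs5-dominant and 14 other.

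A gene was called where the ratio of summed CPM reached 1.5 either way, with at least 5 CPM in either set. Shares carry Clopper-Pearson and sums Poisson 95% intervals. Named genes are the 10 genes, the anchors, the most abundant genes of each fixed list (5, 5 and 3), called genes of the maturation and substrate lists, and the 3 genes closest to each member. P4ha3, Eln, Htra2, Znhit1 and Col4a1 were used further after their values were seen, as was the correlation limit of 0.2. The members, the split and the lists were chosen with earlier results of these data known. Ratios and correlations were tested on simulated data with the same spread for every gene and planted ratios well beyond 1.5. That simulation does not cover ratios near the limit, such as that of Loxl3, or genes as patchy as Lox. Software was R 4.3.3 with scran 1.30.0, and Python 3.11.15 with scipy 1.17.1, numpy 2.4.6, matplotlib 3.10.9 and pandas 2.3.3.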

Additional observations from a re-analysis of the deposited data

How the results depend on the processing

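No paired analysis was possible because there is 1 group and no test. A stricter cell filter (at least 4000 genes, at most 10% mitochondrial counts) removed no cell. Over 12 alternatives the mean pairwise correlation ranged from 0.04 to 0.08 and the median correlation with Col1a1 from 0.09 to 0.13, neither moving by more than 0.05. Single correlations with Col1a1 were under 0.2 for Lox (0.19) and P4ha2 (0.15) only within Rgs5-dominant cells. That of Plod2 (0.18) reached the 0.2 limit when thinned (0.21) and with scran size factors (0.20), which would put Plod2 among the genes at or above it. The summed level of the 10 genes was 1737 CPM, 1754 CPM without 12 cells rich in posterior Hox genes and 1798 CPM without the 10% of cells richest in other lineages. The number of genes at least 1.5-fold lower in Rgs5-dominant cells was 3 or 4 over 11 alternatives. The number at least 1.5-fold higher was 0 in place of 1 without the columns low in Sftpc. Lox, Loxl1 and P4ha2 stayed at least 1.5-fold lower in all 11. Where 4 genes were lower, the added gene was Loxl4, which is not read as expression here. The log2 ratio of Loxl4 was -0.73 over all cells and 0.62 within the columns low in Sftpc alone. Loxl4, which has few counts, had a log2 ratio of -0.26 between end quartiles of Col1a1 within Rgs5-dominant cells, against 0.77 over all cells; the cause was not tested. With 1 sample, differences between animals cannot be measured.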
